A study of Saccharomyces cerevisiae with 4 samples.

Results

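The genes described here make the nucleotides GTP, CTP and AMP in budding yeast, and some of them are switched by short unstable transcripts that start upstream of the gene. They are IMD2, IMD3, IMD4, GUA1, URA2, URA7, URA8 and ADE12, 8 of the 5449 genes tested, and were taken by annotated gene symbol as 4 genes for which such switching is reported, with their paralogues and GUA1. Each of the 8 was measured by 1 probe set. The identifier of the IMD2 probe set marks it as cross-hybridising, and the other 7 carry no such mark. IMD1, a near copy of IMD2 that is a pseudogene in the reference strain, had no probe set named here, so signal from it cannot be told apart from that of IMD2.

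The study measured transcript levels on 4 one-colour Affymetrix arrays. The 2 dis3E729K cultures carried a missense allele of DIS3, the catalytic ribonuclease of the RNA exosome, and the 2 wild-type cultures carried the normal gene. Per the labels, every strain was of the BY4741 background, a common laboratory strain, had a URA3 marker beside DIS3 and grew to log phase at 30 °C in a drop-out medium that selects for the allele. URA3 is itself a pyrimidine synthesis gene, and all cultures of both genotypes carried it. The labels call the samples biological replicates. How many clones they came from is not given in the sources used here.

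The nuclear exosome degrades short transcripts that the Nrd1-Nab3-Sen1 complex terminates early. At URA2, URA8, ADE12 and IMD2, RNA polymerase II can begin at an upstream site, which yields such a short transcript, or at a downstream site, which yields the mRNA. At IMD2, URA2 and URA8 the choice is known to follow the supply of the nucleotide that the pathway makes, so that the mRNA is produced when the supply is low. The array values refer to probe sets annotated to the genes, and whether a probe lies in an upstream transcript is not given in the sources used here.

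Values are RMA log2 intensities, a scale on which 1 unit is a doubling of signal. Differences are given as dis3E729K minus wild type, with the moderated standard error of limma. The array medians over the 5449 genes lay between 10.27 and 10.29. All 7 a-cell markers were higher on both replicate 1 arrays than on both replicate 2 arrays, and all 5 alpha-cell markers were the other way round. MFA2, an a-factor gene, read 12.85 and 5.57 in dis3E729K replicates 1 and 2, and 13.00 and 5.86 in wild type replicates 1 and 2. MET17, which BY4741 lacks, read 3.37 and 3.47 in dis3E729K, and 3.22 and 9.55 in wild type replicates 1 and 2. The replicate 2 arrays, and wild type replicate 2 above all, therefore do not carry the marker pattern of BY4741, an a-cell strain, and results are given within each replicate number and without single arrays where these differ. All 17 ribosomal RNA control probe sets of S. cerevisiae were higher on both dis3E729K arrays, with a median difference of 0.42, and their part in the results below was not tested. DIS3 read 11.49 and 11.12 in dis3E729K, against 11.65 and 11.82 in wild type, and a missense allele is not checked by its transcript level.

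The comparison asks which of these genes differ in cells with an altered exosome ribonuclease. Of the 8 genes, URA8 rose, 0 fell and the other 7 did not pass. URA8 encodes the minor of the 2 CTP synthetases, and its signal in dis3E729K was 2.37 times that in wild type. The level of ADE12, which encodes the first enzyme from IMP to AMP, was 1.64 times as high but missed the threshold. IMD2 varied more between cultures of 1 genotype than between genotypes. The remaining 5 genes differed by -0.24 to -0.06 log2 units. Over all genes tested, 7.71% rose and 8.15% fell in limma's test at a Benjamini-Hochberg adjusted p under 0.05, so 1 call among 8 genes is near the background. Before adjustment, p was under 0.05 for 2 higher and 0 lower genes of the 8, where 18.1% of all genes were higher and 22.6% lower by that rule. The median difference over the 8 genes was -0.12, and that over all genes tested was -0.07.

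**Figure D1:**
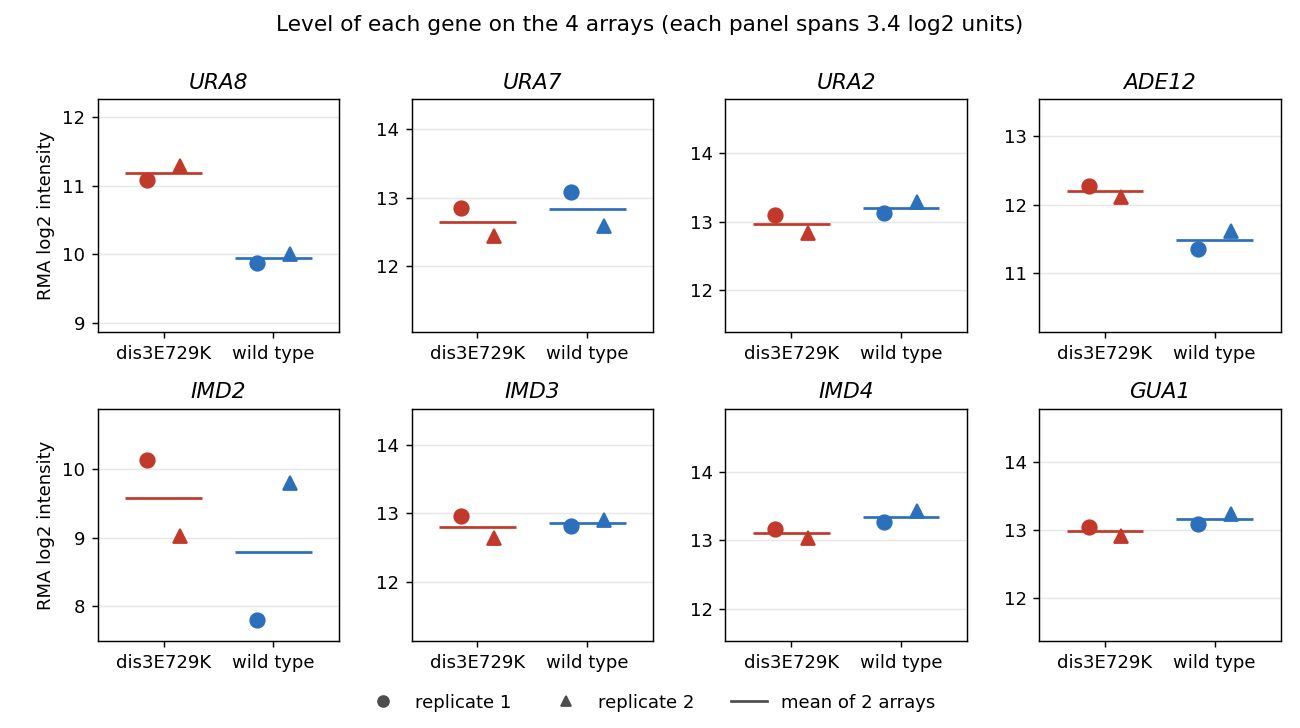
RMA log2 intensity (vertical axis) of each of the 8 genes on the 4 arrays. Red symbols are dis3E729K and blue symbols wild type, circles are replicate 1, triangles replicate 2 and bars the mean of 2 arrays. The red symbols of URA8 (11.09 and 11.28) and ADE12 (12.27 and 12.12) lie above the blue ones, and those of IMD2 interleave.

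Pyrimidine synthesis opens with URA2 and closes, for CTP, with URA7 and URA8. URA8 read 11.09 and 11.28 in dis3E729K replicates 1 and 2, against 9.87 and 10.01 in wild type replicates 1 and 2. The genotypes did not overlap, and their gap was several times the distance between cultures of 1 genotype. The difference was 1.25 ± 0.14 (SE, n = 2 each), with a 95% interval of 0.86 to 1.63 and an adjusted p of 0.0336 in limma's test. It was 1.21 for replicate 1 and 1.28 for replicate 2, so it was as large in the cultures with a-cell markers as in those with alpha-cell markers. URA8 also passed with the replicate number as a block in the fit (adjusted p = 0.0450), where 3.65% of all genes rose and 2.64% fell. Among all 5449 differences, that of URA8 ranked 339 from the highest. The call was lost without dis3E729K replicate 2, without wild type replicate 1 and without wild type replicate 2. It was kept without dis3E729K replicate 1, where the difference was 1.34. Fewer genes of the whole table passed without each of the 4 arrays than with all of them. Without dis3E729K replicate 2, 0 of the 5449 genes passed limma's test, 694 were higher and 868 lower by unadjusted p under 0.05, and 0.113 was the smallest adjusted p. Without wild type replicate 1, 164 genes passed as higher and 85 as lower, and without wild type replicate 2 the counts were 9 and 2. The size of the URA8 difference stayed between 1.15 and 1.34 whichever array was left out.

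URA7 encodes the CTP synthetase that supplies most of the activity. It read 12.84 and 12.43 in dis3E729K, against 13.09 and 12.58 in wild type. Replicate 2 was the lower culture in both genotypes and the groups overlapped. The difference was -0.20 ± 0.25 (SE), with a 95% interval of -0.88 to 0.49 and an adjusted p of 0.584 in limma's test. Its wild-type cultures lay 0.50 apart, a distance larger than that of 86.8% of all genes. Its sign was not stable, since it was 0.05 without wild type replicate 1 and 0.0075 without dis3E729K replicate 2.

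URA2 encodes the enzyme that carries out the first steps of pyrimidine synthesis and is inhibited by UTP. It read 13.10 and 12.84 in dis3E729K, against 13.12 and 13.29 in wild type. Both dis3E729K arrays lay below both wild-type arrays, with replicate 1 of the 2 genotypes nearly equal. The difference was -0.24 ± 0.16 (SE), with a 95% interval of -0.67 to 0.19 and an adjusted p of 0.311 in limma's test. Without dis3E729K replicate 2 it was -0.11, and without dis3E729K replicate 1 it was -0.37. URA2 and URA8 are both reported to have an upstream unstable transcript. Their intervals did not overlap, and URA2 was not tested against URA8.

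ADE12 encodes adenylosuccinate synthetase, which opens the branch from IMP to AMP. It read 12.27 and 12.12 in dis3E729K replicates 1 and 2, against 11.35 and 11.61 in wild type replicates 1 and 2. Both dis3E729K arrays were above both wild-type arrays, as for 32.3% of all genes. The difference was 0.71 ± 0.15 (SE, n = 2 each), with a 95% interval of 0.29 to 1.13 and an adjusted p of 0.0521 in limma's test. It was 0.91 for replicate 1 and 0.51 for replicate 2, and the adjusted p was 0.105 with the replicate block. The value passed at 0.0447 with an intensity trend in limma's variance prior, and over the 14 alternatives the adjusted p lay between that and 0.188.

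The branch from IMP to GMP runs through IMP dehydrogenase, made by IMD2, IMD3 and IMD4, and then through GMP synthetase, made by GUA1. IMD2 is the form that lets cells grow in mycophenolic acid, a drug that inhibits the enzyme. It read 10.13 and 9.02 in dis3E729K replicates 1 and 2, against 7.80 and 9.80 in wild type replicates 1 and 2. The highest and the lowest value both came from replicate 1, and the genotypes overlapped. The distance between the wild-type cultures, 2.00, was larger than that of 99.2% of all genes, and the distance between the dis3E729K cultures, 1.11, was larger than that of 97.1%. The difference between genotypes was 0.78 ± 0.80 (SE), with a 95% interval of -1.41 to 2.96 and an adjusted p of 0.497 in limma's test. It was 2.34 for replicate 1 and -0.78 for replicate 2. Leaving out wild type replicate 1 turned it to -0.22, and leaving out wild type replicate 2 gave 1.78. It was 0.22 without dis3E729K replicate 1 and 1.33 without dis3E729K replicate 2. The interval of IMD2 thus holds both directions.

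IMD3 read 12.96 and 12.64 in dis3E729K, against 12.81 and 12.90 in wild type. The groups overlapped, with a difference of -0.06 ± 0.16 (SE), a 95% interval of -0.50 to 0.39 and an adjusted p of 0.809 in limma's test. The sign was not stable here either, at 0.10 without dis3E729K replicate 2. IMD4 read 13.17 and 13.04 in dis3E729K, against 13.27 and 13.42 in wild type. Both dis3E729K arrays of IMD4 were the lower ones, by 0.10 and 0.39 within the replicate numbers, and the difference of -0.24 ± 0.13 had a 95% interval of -0.61 to 0.13. GUA1 read 13.05 and 12.92 in dis3E729K, against 13.09 and 13.24 in wild type. It was likewise lower on both dis3E729K arrays, with a difference of -0.18 ± 0.13 and a 95% interval of -0.55 to 0.18. The adjusted p in limma's test was 0.243 for IMD4 and 0.354 for GUA1. Lower values on both dis3E729K arrays, as for IMD4, GUA1 and URA2, were found for 41.8% of all genes.

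**Figure D2:**
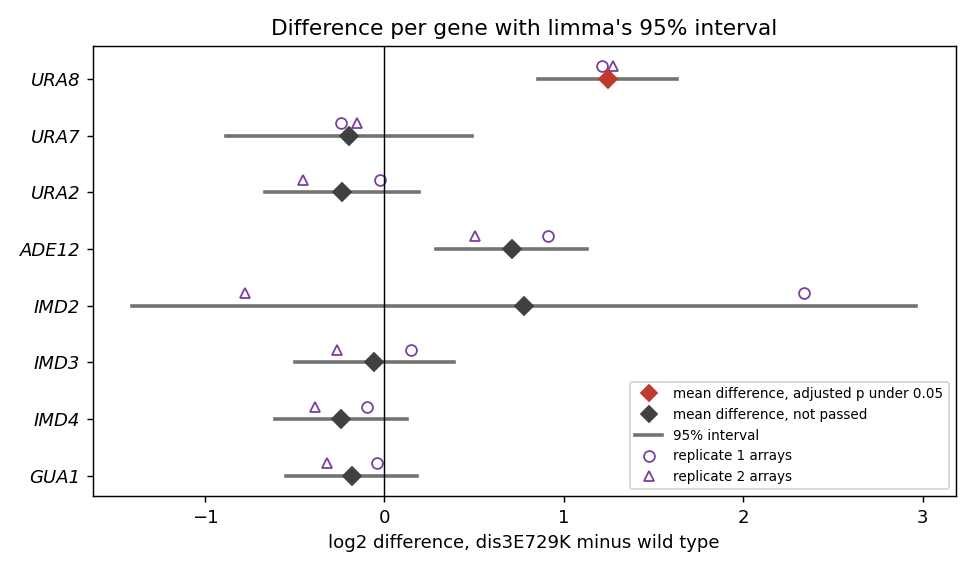
Log2 difference of each gene, dis3E729K minus wild type (horizontal axis). Diamonds are the mean difference, grey lines limma's 95% interval, and open symbols the difference within replicate 1 (circles) and within replicate 2 (triangles). For URA8 the open symbols coincide (1.21 and 1.28), and for IMD2 they lie on opposite sides of 0 (2.34 and -0.78).

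Whether paralogues changed unequally was asked by setting one against the other within each array. The offset between 2 probe sets has no meaning of its own, and only its shift between genotypes is read. URA8 minus URA7 was -1.76 and -1.15 in dis3E729K replicates 1 and 2, against -3.21 and -2.58 in wild type replicates 1 and 2. The genotypes did not overlap, and the shift of 1.44 was nearly the same within the replicate numbers, at 1.46 and 1.43. In the exact permutation test over the 4 arrays, two-sided, p was 0.333, which is the smallest that 2 arrays against 2 allow, and the value adjusted over the 4 pairs compared was 0.667. IMD3 minus IMD4 was -0.21 and -0.40 in dis3E729K, against -0.46 and -0.52 in wild type, a shift of 0.18 with the same exact permutation p of 0.333.

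The other pairs involve IMD2. IMD2 minus IMD3 was -2.83 and -3.62 in dis3E729K replicates 1 and 2, against -5.01 and -3.10 in wild type replicates 1 and 2. The genotypes overlapped, the shift was 0.84 and the exact permutation p was 0.667. IMD2 minus IMD4 shifted by 1.02, with 2.44 for replicate 1 and -0.39 for replicate 2, and an exact permutation p of 0.667. IMD3 and IMD4 varied little between cultures, so these shifts mostly repeat the values of IMD2 itself.

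**Figure D3:**
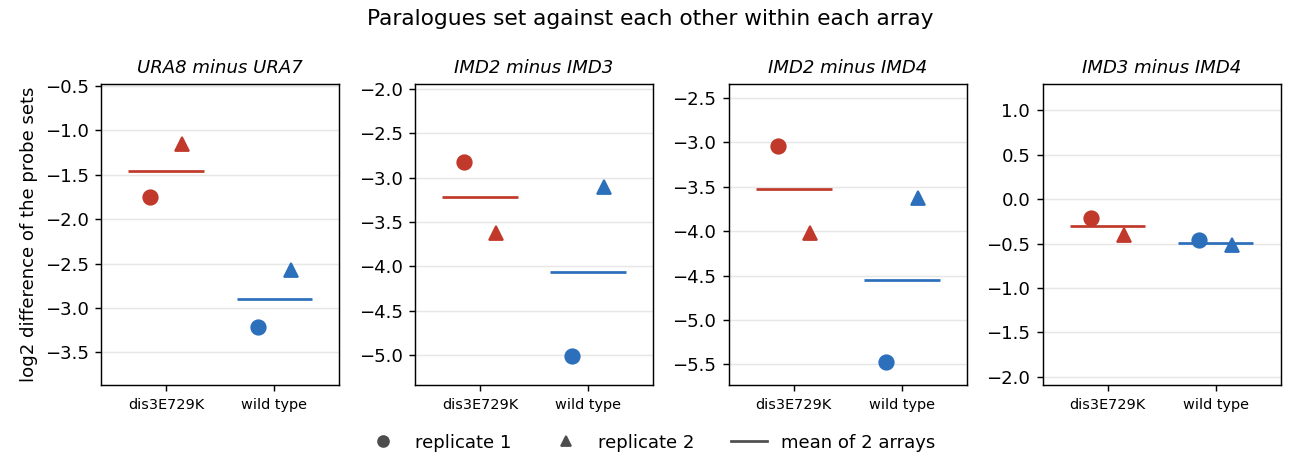
Log2 difference between the probe sets of 2 paralogues on each array (vertical axis), in dis3E729K (red) and wild type (blue), with circles for replicate 1, triangles for replicate 2 and bars for means. URA8 minus URA7 lies higher on both dis3E729K arrays (-1.76 and -1.15) than on both wild-type arrays (-3.21 and -2.58), and the pairs with IMD2 overlap.

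The other genes of the 2 pathways, 52 measured of 53 listed, gave 3 rises and 4 falls in limma's test, with a median difference of -0.15. These counts are near the background of 7.71% of all genes that rose and 8.15% that fell. None of the 8 measured genes that build the purine ring up to IMP passed, and their differences lay between -0.42 for ADE4 and 0.34 for ADE2 (limma, with an unadjusted p under 0.05 for 0 genes in either direction). The same held for the 8 genes of one-carbon supply, from -0.35 for GCV2 to 0.16 for SHM2. Of the 5 genes for PRPP, the sugar phosphate that both rings need, 0 passed limma's test, and the unadjusted p was under 0.05 for 1 gene, which was lower. The values were -0.53 for PRS3, -0.37 for PRS1 and 0.26 for PRS2.

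The genes that build the purine ring differed between genotypes in opposite directions within the replicate numbers, as did IMD2 and, by 0.15 and -0.26, IMD3. Of the 8 measured, 7 were higher in dis3E729K than in wild type for replicate 1 and lower for replicate 2, a pattern seen for 11.3% of all genes tested. ADE17, which carries out the last steps to IMP, read 11.56 and 10.50 in dis3E729K replicates 1 and 2, against 10.42 and 11.39 in wild type replicates 1 and 2. ADE16 was the exception, higher in dis3E729K by 0.0081 for replicate 1 and by 0.17 for replicate 2. The list's median was 0.31 for replicate 1 and -0.34 for replicate 2. Among the 8 one-carbon genes 5 had the same pattern, among the 8 genes described 2 did, and among the 7 genes of pyrimidine salvage and uptake 0 did. This pattern was looked for after the values were seen, and no test was made of it.

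**Figure D4:**
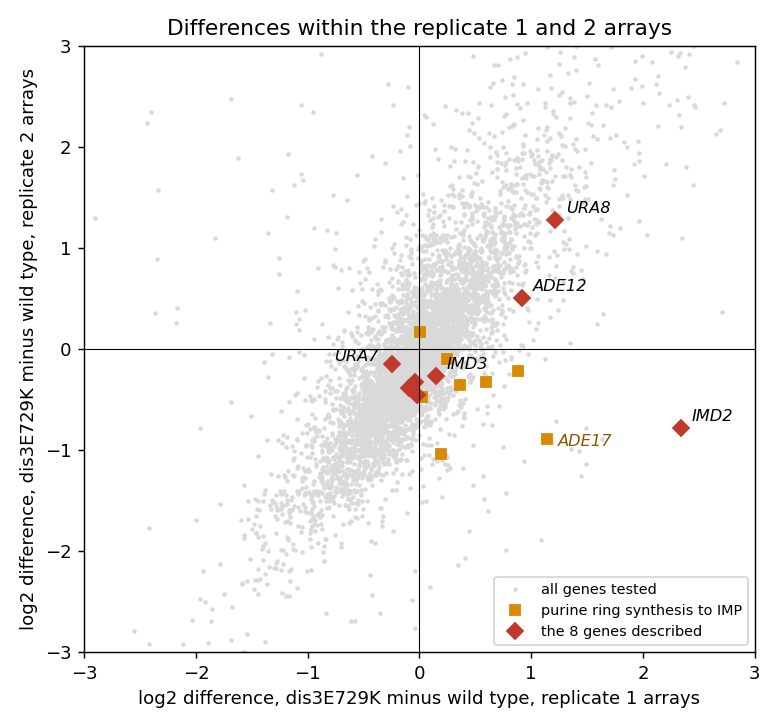
Log2 difference, dis3E729K minus wild type, within replicate 1 (horizontal axis) and within replicate 2 (vertical axis). Grey dots are all genes tested, of which 103 lie outside the axes at 3 log2 units, orange squares the genes of the purine ring and red diamonds the 8 genes described. URA8 lies at 1.21 and 1.28, and IMD2 (2.34 and -0.78) and ADE17 lie right of the vertical and under the horizontal zero line.

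Among 11 genes of purine interconversion and salvage, GUD1 and ISN1 rose and AAH1 fell, where 7.71% of all genes rose and 8.15% fell. GUD1, guanine deaminase, read 8.80 and 9.40 in dis3E729K, against 7.69 and 7.29 in wild type, a difference of 1.61 ± 0.28 (SE) with an adjusted p of 0.0412 in limma's test. ISN1, which removes the phosphate of IMP, read 10.64 and 11.04 in dis3E729K, against 10.00 and 9.82 in wild type, and rose by 0.93 (adjusted p = 0.0476). AAH1, adenine deaminase, read 11.71 and 11.47 in dis3E729K, against 12.28 and 12.42 in wild type, and fell by 0.76 (adjusted p = 0.0452). With the replicate number as a block none of them passed in limma's test, with adjusted p of 0.0561, 0.0782 and 0.0913 for GUD1, ISN1 and AAH1, and none passed with any single array left out.

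Of the 5 genes that take pyrimidine synthesis on to UMP 0 passed limma's test, and the unadjusted p was under 0.05 for 1 gene, which was higher. URA10, the minor orotate phosphoribosyltransferase, read 9.09 and 10.02 in dis3E729K, against 8.65 and 8.59 in wild type, with an adjusted p of 0.123. URA1, dihydroorotate dehydrogenase, differed by -0.52 (adjusted p = 0.126). URA3, the gene of the marker, read 11.22 and 10.89 in dis3E729K, against 11.36 and 11.38 in wild type, and did not pass (adjusted p = 0.211). Of 7 genes for pyrimidine salvage and uptake, URH1, uridine nucleosidase, fell by 0.81 (adjusted p = 0.0436 in limma's test). Of all genes, 8.15% fell. The median of the 7 genes was -0.80. FUR4, the uracil permease, and FUI1, the uridine permease, differed by -0.88 and -0.86 and did not pass, with adjusted p of 0.0590 and 0.0512. Both permeases were lower on both dis3E729K arrays, and 6 of the 7 genes were, against 41.8% of all genes. ADK2, a mitochondrial adenylate kinase, was the 1 nucleotide kinase of 5 that rose, by 0.77 (adjusted p = 0.0371 in limma's test). Of all genes, 7.71% rose. GUK1 and URA6, the GMP and UMP kinases, differed by -0.31 and -0.50 and did not pass. URH1 and ADK2 did not pass with the replicate block, at 0.0749 and 0.0771. The call of URH1 was lost without each array except dis3E729K replicate 1, where the difference was -0.955. That of ADK2 was lost whichever array was left out.

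Of the 3 listed transcription factors of these pathways, BAS1 and PPR1 fell and PHO2 did not pass. By the same rule 8.15% of all genes fell. BAS1, the activator of the purine genes, read 9.11 and 8.99 in dis3E729K, against 10.51 and 10.84 in wild type, a difference of -1.62 ± 0.17 (SE) and an adjusted p of 0.0335 in limma's test. PPR1, the activator of several pyrimidine genes, averaged 8.33 ± 0.46 in dis3E729K, against 9.94 ± 0.07 in wild type (SD, n = 2 each), a difference of -1.62 ± 0.26 and an adjusted p of 0.0377. Both fell with the replicate block too, at adjusted p of 0.0396 and 0.0475 in limma's test, where 2.64% of all genes fell. PHO2, the partner of Bas1, differed in the other direction, by 0.87 ± 0.20, and did not pass (adjusted p = 0.0556). Without dis3E729K replicate 1 the differences were 1.11 for PHO2, 1.40 for URA10 and -1.94 for PPR1, and the call of BAS1 was lost. Without wild type replicate 1 BAS1 differed by -1.79, and the call of PPR1 was lost. Without dis3E729K replicate 2 or wild type replicate 2 neither BAS1 nor PPR1 passed. None of the purine ring genes, which BAS1 activates, passed, with differences from -0.42 to 0.34 as given above. Of the genes that PPR1 activates, URA1 at -0.52, URA3 at -0.32, URA4 at -0.03 and URA10 at 0.93 did not pass. Whether the lower BAS1 and PPR1 transcripts bear on these genes was not tested.

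**Figure D5:**
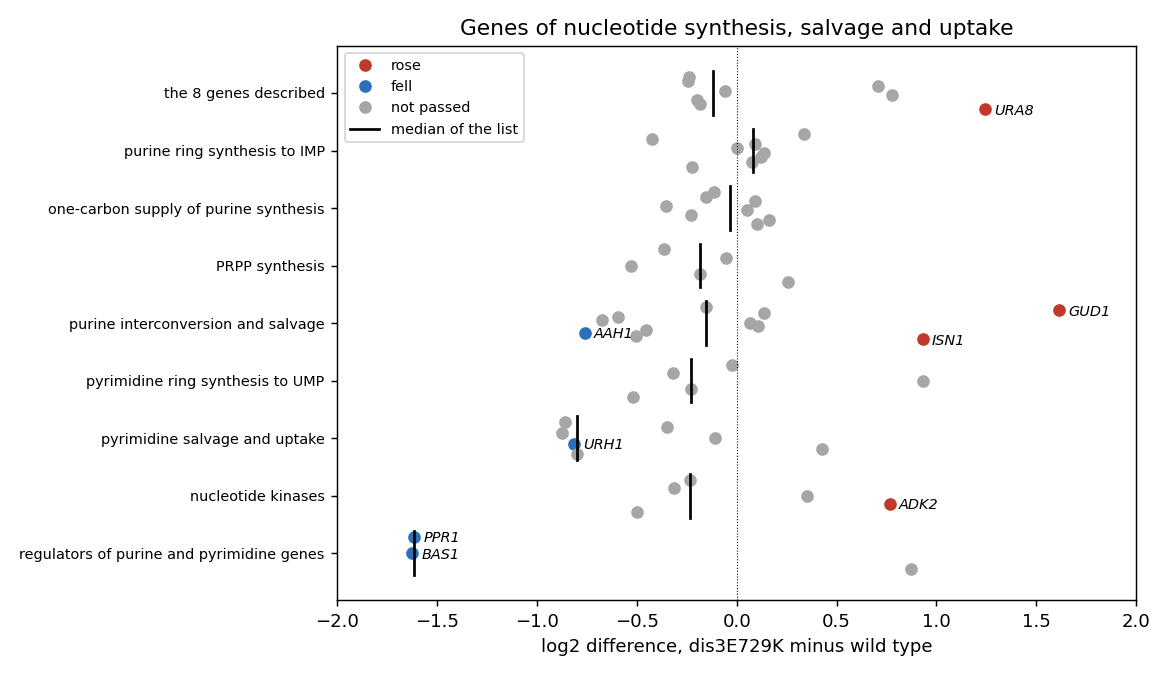
Log2 difference, dis3E729K minus wild type (horizontal axis), of the 8 genes described and of 8 lists of other genes of the pathways (rows). Each dot is a gene, red where it rose, blue where it fell and grey where it did not pass, and black bars are list medians. URA8, GUD1, ISN1 and ADK2 lie to the right, and BAS1 and PPR1 lie far to the left at -1.62.

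The termination complex that acts on the upstream transcripts was measured on the same arrays. NRD1 and NAB3, its RNA-binding subunits, differed by 0.74 and 0.55, and SEN1, its helicase, by -0.80. In limma's test 0 of the 3 passed. By unadjusted p under 0.05 in that test, NRD1 and NAB3 were higher and SEN1 was lower. Of all genes, 18.1% were higher and 22.6% lower by that rule. SEN1 read 10.60 and 10.09 in dis3E729K, against 11.09 and 11.20 in wild type (adjusted p = 0.0698). Other genes for which attenuation is reported, not always by a choice of start site, did not pass either. They differed by -0.40 for HRP1, -0.11 for PCF11 and 0.22 for CLN3. GSC2, also called FKS2, differed by -2.17 for replicate 1 and by 0.40 for replicate 2.

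Genes whose profile over the 4 arrays was most like that of 4 of the genes were named by the Euclidean distance between profiles centred on their own means. For URA8 they were YFL051C, ECM12 and AIM39, at 0.06 to 0.12 log2 units, and 267 genes lay within 0.5. For ADE12 they were FSH2, DSD1 and USE1, at 0.09 to 0.10, with 688 genes within 0.5. For URA2 they were YGR210C, NUP85 and ADE6, at 0.03 to 0.04, with 2590 genes within 0.5. IMD2 had 0 genes within 0.5, and its nearest, IZH4, YER187W and RDS1, lay at 0.52 to 0.65. Each of the 3 was highest in dis3E729K replicate 1 or wild type replicate 2 and lowest in wild type replicate 1, as IMD2 was. Likeness over 4 arrays is a description of these cultures.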

How the data were processed

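The 4 cultures, 2 per genotype, gave 1 array each, and groups came from the sample titles. The authors deposited log2 intensities, with 1 value for each probe set on every array. Per the submitters' processing notes, RMA was used, along with Affymetrix Expression Console and Transcriptome Analysis Console, without versions. RMA gives all arrays 1 distribution, so a global change in mRNA cannot be seen, and bright signal may be compressed.

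Of 10928 probe sets, 5498 matched 1 S. cerevisiae gene of RefSeq assembly R64 through the platform annotation. The brightest per gene over the 4 arrays was kept, which left 5449 genes. Coordinates and sequences are not printed, since the sources used here name no genome build. ADE5,7 (ADE57 in RefSeq) was not measured.

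limma 3.58.1 in R 4.3.3 compared genotypes (lmFit, eBayes, Benjamini-Hochberg over all genes, threshold 0.05). The fit had 2 residual degrees of freedom and 2.18 prior degrees of freedom estimated from all genes. The p-values set each difference against the spread between these cultures, moderated over all genes. Simulated data were used to test the fit. Paralogue shifts were tested by exact permutation in SciPy 1.17.1. Named were the 8 genes, pathway genes past the threshold, up to 3 per list by moderated statistic, the termination complex and strain markers. URA4, ADE16, ADE17 and the chromosomal neighbours were added after their values were seen. Genes and lists were chosen with earlier results of these data known. Alternatives covered the replicate block, variance prior, normalization, filters, probe set choice, thresholds and single arrays left out.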

Additional observations from a re-analysis of the deposited data

How the results depend on the processing

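Among the 8 genes 1 rose in the analysis as reported. The count was 2 with an intensity trend, where 445 of the 5449 genes rose and 479 fell, and ADE12 was the second gene. It was also 2 at an adjusted p under 0.10, where the share of all genes was not counted. It was 0 without variance moderation, with an unadjusted p under 0.05 for 2 higher genes in limma's fit, and between 0 and 1 with single arrays left out. Over all 5449 genes, 0 rose and 2 fell without moderation (631 and 777 by unadjusted p under 0.05 in the linear fit), and 0 passed limma's test without dis3E729K replicate 2, so a count of 0 there is not particular to these genes. The count of falls was 0 under every alternative, and each limma fit had 0 lower genes with an unadjusted p under 0.05. In the fit with the replicate block 1 of the 8 rose, URA8, at an adjusted p of 0.0450. Of the 52 other pathway genes 3 rose and 4 fell. The counts were 0 and 2 with the replicate block, where 3.65% of all genes rose and 2.64% fell. By unadjusted p under 0.05 in limma's block fit they were 5 and 9, against 850 and 950 of all 5449 genes. Without moderation they were 0 and 0 (3 and 6 unadjusted), where 0 of all genes rose and 2 fell. For the remaining thresholds the share of all genes was not counted, so the counts there are not set against the background. The counts were 5 and 11 at an adjusted p under 0.10, and 1 and 2 with at least 1 log2 unit required. With single arrays left out they lay between 0 and 2 for rises and between 0 and 2 for falls. Leaving out URA3, an alternative chosen after seeing the data, could change neither count. URA3 itself had not passed, and the fit was not repeated without it. The shift of IMD2 minus IMD3 was -0.51 within the replicate 2 arrays and between -0.12 and 1.79 with single arrays left out, and that of IMD2 minus IMD4 was -0.39 within the replicate 2 arrays and between 0.10 and 1.94. URA8 minus URA7 lay between 1.12 and 1.76 and IMD3 minus IMD4 between 0.09 and 0.28. With single arrays left out the difference of IMD2 lay between -0.22 and 1.78. That of IMD3 lay between -0.22 and 0.10 and that of URA7 between -0.45 and 0.054, and the other 5 genes kept their sign. Among the other alternatives only the changes of normalization altered the differences, and all 8 genes kept their sign under those. The rest left the differences as they were and could not change a sign. The cause of these dependences was not tested. The same-numbered arrays deviated together only weakly from their genotype means, at r = 0.084 across 5449 genes, which are not independent replicates; the labels do not say that the numbers pair the cultures. The IMD2 value could not be recomputed without cross-hybridising probe sets, since it has no other.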

Other observations

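The chromosomal neighbours of the 8 genes were looked up after the values of the genes had been seen. Of 16 flanking protein-coding genes 13 were measured, of which CMP2 beside IMD4 and AIM23 beside URA2 rose and TRK1 beside URA2 fell in limma's test, where 7.71% of all genes rose and 8.15% fell. The neighbours of URA8 did not pass. VPS25, upstream, differed by 0.35 and SOD1, downstream, by 0.55, each with both dis3E729K arrays above both wild-type arrays and with adjusted p of 0.102 and 0.103. The neighbours of ADE12 did not share its direction, at -0.94 for POP1, upstream, and -0.07 for ALG9, downstream, and neither passed. Neither neighbour of IMD2 was measured.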
